A study of Mus musculus with 5 samples.

Results

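miR-378 (mmu-miR-378) is a microRNA, a short RNA that guides Argonaute proteins to matching messenger RNAs, and it was followed here through small RNA sequencing of mouse testis cells. Its data are all sequence tags that the submitters placed on the mature mouse mmu-miR-378. It was chosen by its measured values in these libraries: its level, the ends of its tags and its single-base changes. It is 1 of 593 miRNA names with a count, and 51931 of 14452683 miRNA counts fell on it, in 492 distinct tags. The 5 libraries came from C57BL/6 mice with no altered allele named. Magnetic sorting for Thy1.2, a cell surface marker of spermatogonial stem cells (from which sperm production starts), divided the testis cells. The bound cells (Thy1+) and the unbound, mostly somatic cells (Thy1-) gave 2 libraries each, and 1 library came from germ cells cultured from Thy1+ cells for about 10 passages. No age or pooling of mice and no separate origin of replicates is stated in the labels, so errors and p-values measure only the spread between these libraries, which may be technical. The Thy1- libraries carry a stem cell label for cell type but a somatic title, and the title was followed.

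The gene of miR-378 lies in an intron of Ppargc1b, which encodes PGC-1beta, a coactivator of genes for mitochondria and lipid oxidation. The miRNA is known from muscle, liver and brown fat, where it takes part in control of energy metabolism, and it is made together with its host transcript. The precursor hairpin is processed to a duplex. The strand named miR-378 is the one mostly kept, and the strand named miR-378* is mostly discarded. A miRNA recognises targets chiefly through its seed, bases 2 to 8 from the 5′ end, so a shifted start changes the targets it can pair with, while a changed 3′ end leaves the seed as it is.

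miR-378 was lowest in the Thy1- libraries, and the order of Thy1+ and culture depended on the scaling. By CPM, the counts scaled to a total of 1e+06 miRNA counts per library, it was highest in Thy1+ and intermediate in the culture. Its level was 7585 CPM in Thy1+ replicate 1 and 10062 CPM in Thy1+ replicate 2, from 7107 and 9536 counts. The Thy1- libraries held 1698 and 1626 CPM, from 4328 and 7984 counts. The culture held 4496 CPM, from 22976 counts. No library of one group overlapped with another group on this scale, and the 2 Thy1- libraries were much closer to each other than the 2 Thy1+ libraries.

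The means were 8824 ± 1752 CPM in Thy1+ and 1662 ± 51.1 CPM in Thy1- (SD, n = 2), a ratio of 5.31. The Thy1+ mean was 1.96 times the culture value, and the culture value was 2.70 times the Thy1- mean. Each of these gaps was larger than the SD between replicates, although the culture has no replicate of its own. In bulk libraries, fewer cells that hold miR-378 and less of it per cell cannot be told apart. Because the level was among the values known when miR-378 was chosen, its differences are given as a description, with no test. In order of abundance miR-378 ranked 33rd and 28th in the Thy1+ libraries, 75th and 69th in the Thy1- libraries and 38th in the culture, among 510 to 543 names with a count.

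**Figure D1:**
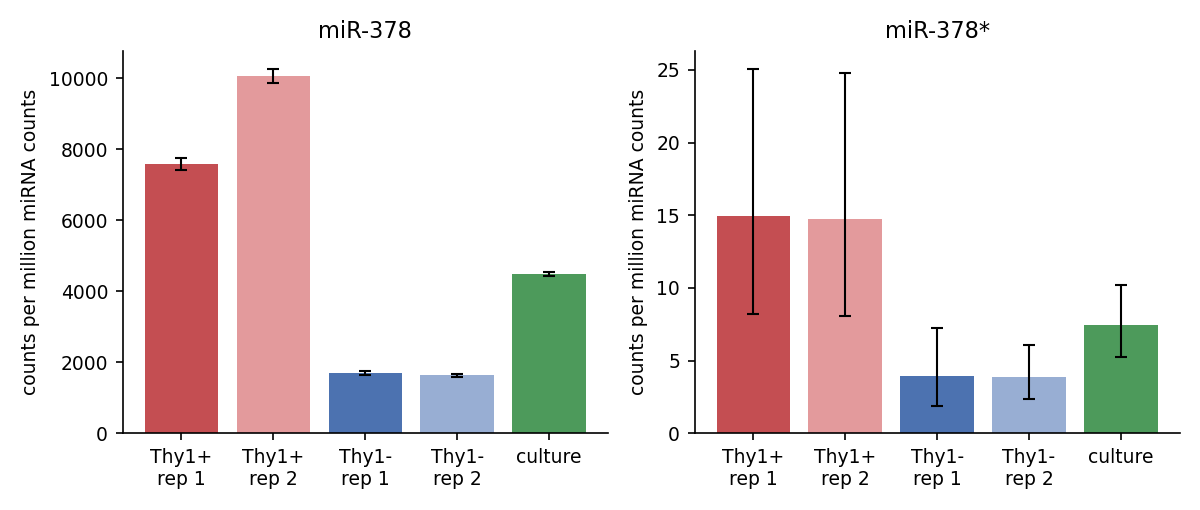
Level of miR-378 (left) and of miR-378*, the other strand of its hairpin (right), in each library. Bars are CPM values from a single library, and error bars are 95% Clopper-Pearson intervals, which cover counting error only. miR-378 stood at 7585 and 10062 CPM in Thy1+, 1698 and 1626 CPM in Thy1- and 4496 CPM in the culture.

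CPM values are shares of a total, so a change in abundant names shifts the rest. In a count model fitted over all names (edgeR) with TMM scaling, which centres the bulk of miRNAs between libraries, the log2 fold change of miR-378 was 1.83 (SE 0.45) for Thy1+ against Thy1-. For culture against Thy1- it was 2.48 (SE 0.54). For culture against Thy1+ it was 0.70 (SE 0.55), with the sign opposite to that of the CPM values. Scaling to total counts gave log2 values of 2.41, 1.44 and -0.97 for Thy1+ against Thy1-, culture against Thy1- and culture against Thy1+. The median log2 fold change of all names then moved by 0.58, -1.04 and -1.64 in that order. With the 10 most abundant names left out of the total, miR-378 stood at 13777 CPM on average in Thy1+ and 13757 CPM in the culture, with 3878 CPM for Thy1-. The order of Thy1+ and culture therefore depended on the scaling, while both stood above Thy1- under TMM, RLE and total scaling. The 2 comparisons with the culture share that library, and each fresh group enters a pair of comparisons.

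Among names tested, the TMM log2 fold change of miR-378 was above that of 79.8% for Thy1+ against Thy1-, of 71.9% for culture against Thy1+ and of 88.1% for culture against Thy1-. For orientation, 28.2% of 425 names passed an edgeR adjusted p of 0.05 in Thy1+ against Thy1- (20.5% higher and 7.76% lower). In culture against Thy1+ 22.3% of 470 names passed, 8.94% higher and 13.4% lower. In culture against Thy1- 34.9% passed, 18.1% higher and 16.8% lower.

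The strand miR-378* was rare in every library and followed the same order by CPM. It had 14 counts in each Thy1+ library (14.9 and 14.8 CPM), 10 and 19 counts in the Thy1- libraries (3.92 and 3.87 CPM) and 38 counts in the culture (7.44 CPM). The replicate values lay close together, closer than the counting error of so few reads, whose 95% interval ran from 8.17 to 25.1 CPM in Thy1+ replicate 1 and from 1.88 to 7.22 CPM in Thy1- replicate 1. The rule that chose miR-378 did not use miR-378*, so it was tested, though it comes from the same hairpin. Against Thy1-, the culture value was higher by a log2 fold change of 1.95 (SE 0.66, edgeR adjusted p = 0.0469). Thy1+ against Thy1- gave 1.35 (SE 0.54, edgeR adjusted p = 0.0979) and culture against Thy1+ gave 0.65 (SE 0.67, edgeR adjusted p = 0.534), which did not pass. The call in the culture was lost under total scaling, in DESeq2, in limma-voom, with replicate number as a block and when any 1 fresh library was left out, while under total scaling Thy1+ against Thy1- passed (log2 1.92, edgeR adjusted p = 0.0322).

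The strand miR-378 was far more abundant than miR-378* in all 5 libraries. There were 508 and 681 counts of miR-378 for each count of miR-378* in Thy1+, 433 and 420 in Thy1- and 605 in the culture. miR-378* made up 0.197% and 0.147% of the pair in Thy1+, 0.231% and 0.237% in Thy1- and 0.165% in the culture, and the 95% intervals of these shares overlapped, from 0.0802% at the lowest to 0.424% at the highest. Among 46 to 64 pairs of a name and its starred name with at least 1000 counts, the median share of the starred strand was 0.859% to 1.5% per library, and between 10 and 15 pairs had a lower share than miR-378*.

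Of the 5 names with the most similar profile across the 5 libraries, 3 were products of miR-465 genes. Likeness was measured as the Euclidean distance between log2(CPM + 1) values centred on their mean over the 5 libraries, among 232 other names with a mean of at least 100 CPM, whose median distance was 3.12. The nearest was miR-465b-5p at a distance of 0.42 (Pearson r = 0.99 over 5 libraries), with 10122 and 10455 CPM in Thy1+, 1883 and 1486 CPM in Thy1- and 4359 CPM in the culture. Next came miR-465a-5p at 0.46, miR-467e at 0.59, miR-878-5p at 0.66 and miR-465b-3p at 0.68. The libraries of a group share a cell fraction, and the miR-465 names are close relatives whose tags can be tied, so these names are not independent of each other. With 5 libraries in 3 groups this is a description of the profiles.

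**Figure D2:**
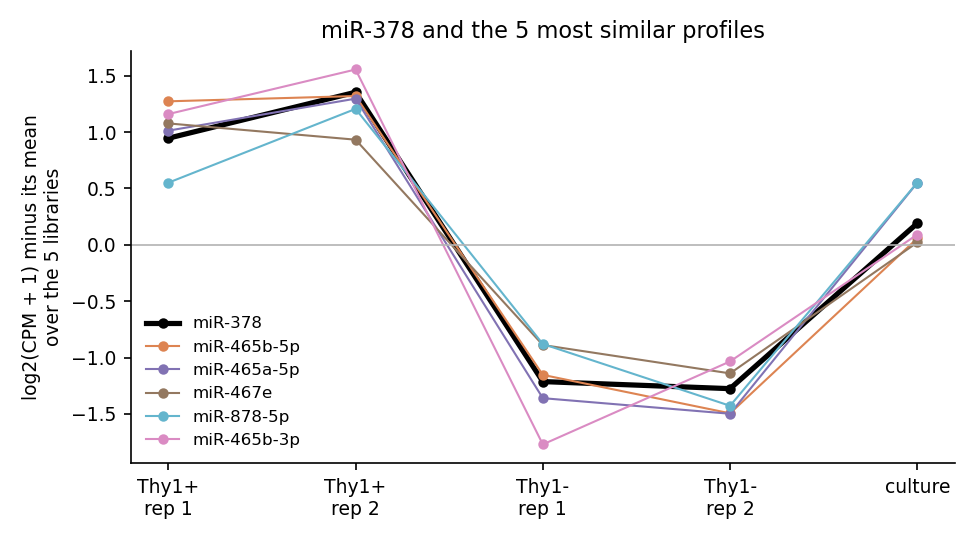
Profiles of miR-378 (thick line) and the 5 names of smallest distance to it. The vertical axis gives log2(CPM + 1) minus the name's mean over the 5 libraries, and each point is 1 library. All 6 lines are above 0 in both Thy1+ libraries and in the culture and below 0 in both Thy1- libraries.

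In order of CPM, the names next above and below miR-378 were let-7g (8283 CPM) and miR-743a (6875 CPM) in Thy1+ replicate 1 and miR-465b-5p (10455 CPM) and miR-872 (9006 CPM) in Thy1+ replicate 2. In Thy1- replicate 1 they were miR-151-3p (1722 CPM) and miR-140* (1625 CPM), and in Thy1- replicate 2 miR-186 (1711 CPM) and miR-191 (1618 CPM). In the culture they were miR-93 (4531 CPM) and miR-805 (4431 CPM).

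Names known from energy metabolism, with miR-378* of the same hairpin among them, were called at a share near that of all names, so their counts do not set them apart. The list held 17 names, namely miR-378*, miR-33 and miR-33* (cholesterol and fatty acid handling), miR-103 and miR-107 (insulin sensitivity), miR-122 (liver), miR-143, miR-27a and miR-27b (fat cell formation), miR-133a and miR-133b (muscle), miR-155, miR-193, miR-193b, miR-365, miR-455 and miR-455* (brown fat). In Thy1+ against Thy1- 1 of 13 tested rose and 2 fell, beside 28.2% of all names called (20.5% higher, 7.76% lower), with a list median of -0.70 on the log2 scale beside -0.07 over all names. miR-155, also known from white blood cells, rose from 8.27 ± 2.18 to 142 ± 13.1 CPM (log2 3.55, SE 0.54, edgeR adjusted p = 0.0115). miR-107 fell from 541 ± 50.2 to 223 ± 10.2 CPM (log2 -1.83, edgeR adjusted p = 0.0335) and miR-365 from 115 ± 98.9 to 29.2 ± 0.516 CPM (log2 -2.45, edgeR adjusted p = 0.0394). The Thy1- level of miR-365 was 185 CPM in replicate 1 and 45.0 CPM in replicate 2, and its call was lost without replicate 1 and in limma-voom. The call of miR-107 was lost without Thy1- replicate 2, although its Thy1- libraries stood close together, at 576 and 505 CPM. Under total scaling neither fall passed, and miR-155 and miR-378* rose. With either Thy1+ library left out, edgeR called 0 list members, as it called 0 of all names (112 and 108 names at an unadjusted p under 0.05). On all fresh libraries DESeq2 called 5 of 13 members (miR-155 higher, miR-103, miR-107, miR-193 and miR-365 lower), beside 144 of 425 names. The replicate block left miR-155 only, beside 32 of 425 names.

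In culture against Thy1+ 2 of 16 list members rose and 0 fell by edgeR, beside 22.3% of all names called (8.94% higher, 13.4% lower), with a median of 0.73 beside -0.09 over all names. These were miR-122, below the level set for naming and given because it was called (log2 2.51, edgeR adjusted p = 0.0440), at 11.4 CPM in the culture (Thy1+ libraries 3.20 and 9.50 CPM), and miR-143 (log2 2.72, edgeR adjusted p = 0.0185), at 37950.4 CPM in the culture and 17369 and 18967 CPM in Thy1+. Under total scaling neither passed and miR-193b fell. Without Thy1+ replicate 1 or 2 there were 0 edgeR calls here too (145 and 120 of all names at an unadjusted p under 0.05), without Thy1- replicate 1 only miR-143 passed, and without Thy1- replicate 2 there were 4 calls. DESeq2 called miR-143, miR-193 and miR-27a higher, 3 of 15 with an adjusted p, beside 126 of 470 names. In culture against Thy1- 5 of 16 rose and 0 fell by edgeR, beside 34.9% of all names called (18.1% higher, 16.8% lower), with a median of -0.02 beside -0.15. DESeq2 and limma-voom each called 4 higher and 1 lower, with miR-107 lower and miR-378* not called. Of all 470 names these tools called 170 and 151. The 5 edgeR calls were miR-122 (log2 4.99), miR-143 (1.98), miR-155 (4.55), miR-27a (2.59) and miR-378* (1.95, the call already given above). In Thy1- miR-122 stood at 0.785 and 0.611 CPM, so its fold change rests on very few counts there. Under total scaling miR-122 and miR-155 rose while miR-103 and miR-107 fell. Without Thy1+ replicate 2 only miR-122 and miR-155 passed, and without Thy1+ replicate 1 miR-27a did also. The member with the highest group mean was miR-143, which stood at 29956 and 11618 CPM in Thy1-. The member miR-103 stood at 15045 and 13300 CPM in Thy1+, 25810 and 25668 CPM in Thy1- and 7092 CPM in the culture. It was highest where miR-378 was lowest. miR-27a stood at 1214 ± 132 CPM in Thy1+, 489 ± 215 CPM in Thy1- and 1387 CPM in the culture, and miR-27b at 3727 ± 1264, 4842 ± 1446 and 2059 CPM. The Thy1+ and Thy1- values of miR-27b overlapped. miR-33 stood at 355 ± 207, 292 ± 24.1 and 114 CPM, and miR-193b at 208 ± 29.1, 89.6 ± 60.8 and 20 CPM. miR-133a had no count in the culture, and both culture medians were the same with it at a bound of 3 counts.

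Marker miRNAs of other cells differed between the same libraries. All 4 white blood cell markers (miR-142-3p, miR-142-5p, miR-150, miR-223) were found, and their summed level was 14772 and 26389.5 CPM in Thy1+, 2007 and 1339 CPM in Thy1- and 844 CPM in the culture. The 3 red blood cell markers (miR-144, miR-451, miR-486) summed to 252 and 179 CPM in Thy1+, 1344 and 1475 CPM in Thy1- and 12.5 CPM in the culture. The 4 striated muscle markers summed to 1524 and 1677, 1040 and 311, and 1156 CPM in that order, with miR-1 and miR-206 found in all libraries, while miR-133a and miR-133b had no count in the culture and miR-133b none in Thy1+ replicate 1. The 4 mesenchymal markers (miR-143, miR-145, miR-199a-3p, miR-214) ranged from 20129 to 50443 CPM in sum and the 2 endothelial miR-126 products from 562 to 2605 CPM. The later germ cell markers miR-34c and miR-449a summed to 106184 and 23539 CPM in Thy1+, 49119 and 8508 CPM in Thy1- and 195572 CPM in the culture. The gonadal miR-202 products summed to 1138 and 2205, 18584 and 3712, and 173 CPM. White blood cell markers thus were higher with miR-378 in Thy1+ than in Thy1-. In the culture they were below both Thy1- libraries while miR-378 was above them by CPM. Their part in the level of miR-378 was not tested. Libraries held 937002 to 5110007 miRNA counts.

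The main forms of the miRNA were the same in all libraries, in somewhat different shares. Most tags began at base 1 and ended at base 21, the last base of the mature sequence, or 1 base short of it. Every placement in the files lies within the annotated mature span, so tags that reach past either end were not analysed here. The whole-length tag without a mismatch or an uncalled base held 72.2% of the miR-378 counts in Thy1+ replicate 1, and the same tag without its last base held 17.4%. Tags ending at base 21 made up 78.6% and 75.8% of counts in Thy1+, 71.0% and 77.0% in Thy1- and 81.1% in the culture. Tags ending at base 20 made up 18.5% and 21.2% in Thy1+, 25.8% and 19.3% in Thy1- and 16.7% in the culture. The culture thus had the largest share at base 21 and Thy1- replicate 1 the smallest, and the fresh groups overlapped.

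Tags ending at base 19 held 1.49% ± 0.24 of counts in Thy1+, 1.14% ± 0.278 in Thy1- (SD, n = 2) and 1.14% in the culture. Those ending at base 18 held 0.962% ± 0.0478, 1.68% ± 0.167 and 0.640%. Here the Thy1- libraries were above the others, with 78 and 125 counts. Their 95% intervals, from 1.30% upwards, lay above those of Thy1+, which reached 1.22%. These intervals cover counting error only and not the spread between libraries. The ends were among the values known when miR-378 was chosen, so this is a description with no test. The 75 other names used as a background had at least 1000 counts in each library and at least 90% of counts with 1 placement. In them, the share of tags 1 base short of the 3′ end had a median of 15% to 16.7% per library, and 39 to 52 of the 75 had a lower share than miR-378. The share 2 bases short was 0.947% to 1.66% for miR-378 against medians of 2.94% to 4.67%, with 11 to 24 of the 75 lower.

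The 5′ end, which sets the seed, was more uniform than the 3′ end. Tags starting after base 1 held 1.58% and 1.69% of counts in Thy1+, 2.84% and 1.54% in Thy1- and 2.24% in the culture. Nearly all of them started at base 2, with 1.56% ± 0.0773 in Thy1+, 2.13% ± 0.881 in Thy1- (SD, n = 2) and 2.17% in the culture. The Thy1- libraries lay on both sides of every other library, so the groups were not separated. Between 34 and 52 of the 75 background names had a smaller share of shifted starts than miR-378.

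**Figure D3:**
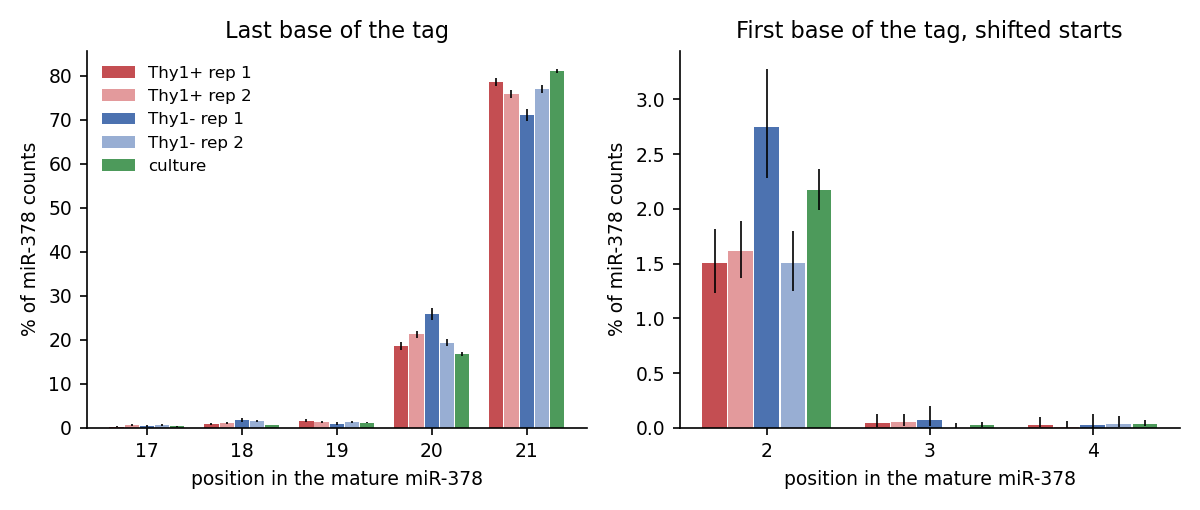
Last base (left) and shifted first base (right) of miR-378 tags, as a percentage of the miR-378 counts of each library. Bars are single libraries and lines are 95% Clopper-Pearson intervals for counting error. Tags ending at base 21 held 71.0% to 81.1% and those starting at base 2 were under 3 in 100 in every library.

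Later annotation names 3 further mouse copies of the miRNA, Mir378b, Mir378c and Mir378d, that are not among the names in the files, and tags from them could have been counted as miR-378. In RefSeq on GRCm38.p6 their hairpins lie on chromosome 11 at 88352773 to 88352864, in an intron of Msi2 on the opposite strand, on chromosome 14 at 46954830 to 46954928, in an intron of Samd4 on the opposite strand, and on chromosome 10 at 126710282 to 126710391, where no other gene of GENCODE M21 overlaps (genes typed as miRNA or TEC were left out). Each mature copy differs from miR-378 at 1 base, Mir378b and Mir378c at position 21 and Mir378d at position 6. Tags found in the hairpin of Mir378c and not in miR-378 had 2 and 11 counts in Thy1+, 2 and 1 in Thy1- and 17 in the culture. For Mir378d they had 11 and 2, 6 and 0, and 7 counts, and for Mir378b 0 and 1, 1 and 0, and 5 counts. For each copy such tags were at most 0.156% of the miR-378 counts without an uncalled base in a library. Tags that end before base 21 cannot be told apart between miR-378 and Mir378c: those matching both made up 20.5% and 23.3% of counts in Thy1+, 26.7% and 22% in Thy1- and 17.9% in the culture. The mature Mir378b begins at base 2 of miR-378. Tags matching both had 14 and 24 counts in Thy1+, 26 and 22 in Thy1- and 73 in the culture. Whether tags with a shifted start came from Mir378b was not tested.

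Single-base mismatches were rare along the body of miR-378 and most frequent at its last base. Tags with 1 or 2 mismatches held 5.29% and 5.65% of counts in Thy1+, 8.09% and 5.17% in Thy1- and 6.71% in the culture. Between 19 and 47 of the 75 background names had a lower share. The median mismatch share over positions 1 to 20 was 0.197% and 0.215% in Thy1+, 0.370% and 0.200% in Thy1- and 0.164% in the culture. At position 21 the mismatch share was 1.58% and 2.39%, 2.83% and 2.13%, and 2.78% in the same order, which is 7.66 to 17 times the median of the other positions. The seed, positions 2 to 8, had a summed mismatch share of 1.49% and 1.49% in Thy1+, 2.77% and 1.54% in Thy1- and 1.55% in the culture, near that of the next 7 positions (1.24% to 2.15%).

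**Figure D4:**
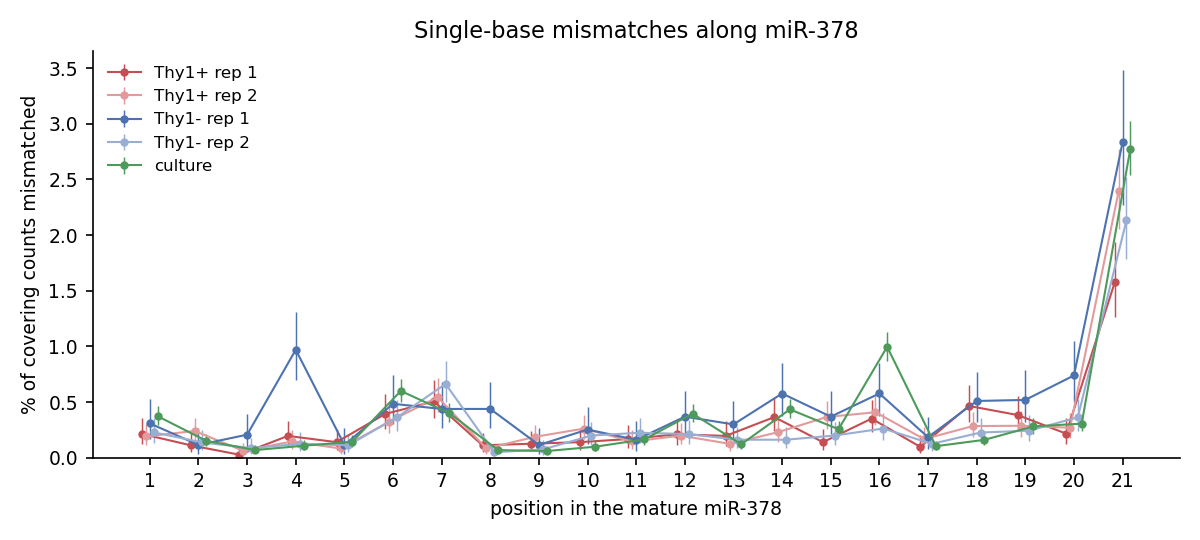
Mismatches along the mature miR-378, as a percentage of the counts that cover each position. Points are single libraries and vertical lines are 95% Clopper-Pearson intervals. Position 21 is the highest in all 5 libraries, position 16 stands out in the culture and position 4 in Thy1- replicate 1.

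Thy1- replicate 1 stood apart in read quality. At position 4 of miR-378 its mismatch share was 0.970%, against 0.109% to 0.197% in the other libraries, and at position 5 an uncalled base was present in 1.04% of its counts, against at most 0.0944% elsewhere. Background names in that library had a median of 0.506% at position 4, so the rise there was not limited to miR-378. Over all its miRNA counts 2.88% carried an uncalled base, against 1.09% to 1.21% in the other libraries. The Thy1- mean of the share of mismatched tags was 6.63% ± 2.06 (SD, n = 2), and the other Thy1- library alone had 5.17%.

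At the last base, the mismatches were mostly adenine or uracil. Tags ending in a mismatched adenine held 0.774% and 0.996% of counts in Thy1+, 1.22% and 1.29% in Thy1- and 1.51% in the culture. Tags ending in a mismatched uracil held 0.563% and 0.797%, 1.13% and 0.639%, and 0.770% of counts. Mismatched cytosine at the end held 0.0422% to 0.199% in all libraries. Terminal adenine was lowest in the Thy1+ libraries and highest in the culture, with groups that did not overlap, whereas terminal uracil overlapped between the fresh groups. The 95% intervals of terminal adenine did overlap between the fresh groups (0.979% to 1.5% in Thy1+ replicate 2 and 1.07% to 1.98% in Thy1- replicate 1, of tags ending at base 21). On the same tags the culture interval, 1.58% to 1.96%, overlapped those of both Thy1- libraries (1.19% to 1.82% in replicate 2). Of the tags ending in a mismatched adenine, at most 5 counts per library were found in a hairpin of the further copies. Non-templated addition of adenine or uracil to a shortened miRNA and a misread last base give the same tag, and which of these occurred was not tested. Terminal mismatched adenine was more frequent than the median of the 75 background names in every library (medians of 0.463% to 0.850%), with 46 to 53 of them lower. These names were not chosen by their own last base. A whole-length tag of a name that ends in adenine cannot end in a mismatched adenine, so this comparison does not show an excess in miR-378.

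Position 16 differed between the culture and the fresh libraries. The change there held less than 1 in 100 counts and was singled out after its values were seen. A16G, an A in miR-378 read as G at position 16 from the 5′ end, was found in 18 of 7103 and 33 of 9528 covering counts in Thy1+ (0.253% and 0.346%). It was found in 14 of 4326 and 12 of 7975 in Thy1- (0.324% and 0.15%) and in 199 of 22964 in the culture (0.867%, 95% Clopper-Pearson interval 0.751% to 0.995%). The group means were 0.300% ± 0.0657 in Thy1+ and 0.237% ± 0.122 in Thy1- (SD, n = 2). The fresh groups overlapped, and the culture value was 2.5 times that of the highest fresh library, and no fresh interval reached above 0.542%. With 1 culture library the difference has no replicate check, and intervals cover counting error only, since reads without molecular identifiers can be copies of one molecule.

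The change was carried by tags of different ends. In the culture it was present in 0.794% of counts ending at base 21, 1.20% of those ending at base 20 and 1.03% of those ending earlier, and in 12 distinct tags ending at base 21 and 5 ending at base 20. In tags with no other mismatch it held 0.792% of culture counts, against 0.151% to 0.306% in the fresh libraries. Position 16 lies outside the seed. A-to-G reads are the form in which adenosine-to-inosine editing by ADAR enzymes appears in sequencing, and copying or sequencing errors give the same read. Which of these produced A16G was not tested.

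Other adenosines of miR-378, also given after their values were seen, showed smaller differences. A6G, within the seed, held 0.141% and 0.199% in Thy1+, 0.185% and 0.251% in Thy1- and 0.474% in the culture (interval 0.390% to 0.572%). A1G held 0.186% and 0.171%, 0.214% and 0.229%, and 0.325%, and A12G 0.0844% and 0.0734%, 0.116% and 0.125%, and 0.213%. The culture was highest at these 3 positions also, and not at the remaining 2 adenosines. All A-to-G changes together were 0.830% and 0.933% of miR-378 counts in Thy1+, 1.09% and 0.939% in Thy1- and 2.02% in the culture, where they were 26.8% of all single-base changes against 11.2% to 16.1% in the fresh libraries.

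Across other miRNAs, the culture library did not stand above the fresh libraries in A-to-G reads. Over the adenosines of the 75 background names with at least 1000 covering counts, the last base of each name left out, the median A-to-G share was 0.0546% in the culture (411 positions) and 0.0480% to 0.0568% in the fresh libraries. The culture was the highest of the 5 libraries at 18.4% of 407 adenosines covered in all of them. The gap between the culture and the highest fresh library, 0.520 percentage points for A16G, was exceeded at 0 of these 407. A16G was singled out after its values were seen, so this rank is a description and not a test. In the culture 3 of 411 background adenosines had a higher A-to-G share than A16G. They were position 14 of miR-465a-5p (26.0%), position 21 of miR-181a (1.19%) and position 19 of let-7e (0.968%), named here after their values were seen. These names have near-identical relatives, and whether tags of relatives entered these shares was not tested. In the fresh libraries 6 to 38 background adenosines were above A16G.

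**Figure D5:**
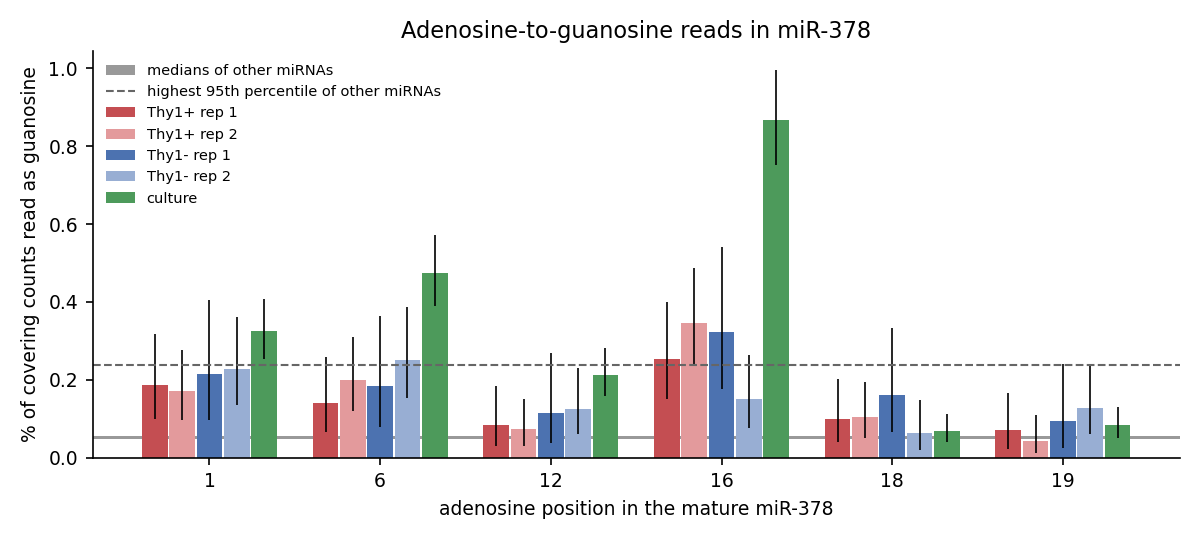
Share of covering counts in which an adenosine of miR-378 was read as guanosine, by position and library. Bars are single libraries with 95% Clopper-Pearson intervals, the grey band spans the medians over the adenosines of 75 other miRNAs (0.0480% to 0.0568%) and the dashed line is the highest 95th percentile of those adenosines in any library (0.237%). The culture bar at position 16 reaches 0.867%.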

How the data were processed

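Small RNA was isolated with Trizol and sequenced on an Illumina instrument, per the labels. The files deposited by the authors list raw read counts per sequence tag without normalization, and give each tag's positions on mature mouse miRNAs of miRBase 12.0, per the file headers and names, with at most 2 mismatches. The submitters' processing notes name DESeq with no version. No source used here gives the aligner, the build or how adapters were removed. The files used hold miRNA tags, so totals (937002 to 5110007) are miRNA counts, not sequencing depths.

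Tied tags, with at most 8 placements, were split equally over names and sums were rounded. All miR-378 tags had 1 placement. Uncalled bases were not counted as mismatches. Names were fitted in R 4.3.3 with edgeR 4.0.16 (TMM, filterByExpr, quasi-likelihood, two-sided, Benjamini-Hochberg over all names, threshold 0.05). A run on simulated data used a smaller spread than that of these libraries, so it does not give error rates for them. Thy1+ against Thy1- used the 4 fresh libraries, and culture comparisons used all 5, the single culture library being assumed to vary like the fresh groups. Alternatives were total and RLE scaling, no filter, tags without mismatch, tags with 1 name, DESeq2 1.42.0, limma-voom 3.58.1, a replicate block, leaving out libraries, tags with at least 2 counts and up to 1 mismatch. The alternatives for the energy metabolism list were added after seeing the data. miR-378, the lists, markers and rules were chosen with earlier results of these data known. Named miRNAs were miR-378, miR-378*, the 5 of most similar profile, neighbours in CPM, energy list members of at least 100 CPM in a group, markers, and variants of at least 1% in a library. Outside this rule, miR-122, miR-193, the mismatches at position 4, terminal cytosine and the A-to-G changes were named after their values were seen. The sequence of miR-378 is not reported here.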

Additional observations from a re-analysis of the deposited data

How the results depend on the processing

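Total scaling turned the sign of culture against Thy1+ to -0.97 for miR-378 and -0.99 for miR-378*. It moved miR-378 to 2.41 for Thy1+ against Thy1- and to 1.44 for culture against Thy1-. For miR-378*, Thy1+ against Thy1- passed under total scaling (log2 1.92, edgeR adjusted p = 0.0322), and the call for culture against Thy1- was lost under total scaling (0.93), DESeq2 (1.98), limma-voom (1.93) and the replicate block (1.95). The cause was not tested. Leaving out 1 fresh library gave 1.81 to 1.96, 0.40 to 0.70 and 2.17 to 2.60 for miR-378 in the order of the report's first 3 comparisons (Thy1+ against Thy1-, culture against Thy1+, culture against Thy1-), and 1.18 to 1.54, 0.19 to 0.77 and 1.64 to 2.10 for miR-378*, whose last call was lost each time. Names called went from 120 to between 0 and 138, from 105 to between 0 and 128 and from 164 to between 46 and 135. Without Thy1+ replicate 1 or 2, which leaves 1 library assumed to vary like the others, edgeR called 0 names for Thy1+ against Thy1- (112 and 108 at an unadjusted p under 0.05) and 0 for culture against Thy1+ (145 and 120). Without Thy1+ replicate 2, culture against Thy1- had 46 calls, and without Thy1- replicate 1 culture against Thy1+ had 68 and culture against Thy1- 94. The replicate block gave 32 calls for Thy1+ against Thy1-. Same-numbered libraries had a correlation of -0.06 in their deviations over 425 names, and the labels do not say that a number marks a shared animal or day. Total scaling gave 173 calls for culture against Thy1+, 9 higher and 164 lower, against 42 and 63. For the other comparisons it gave 110 higher and 11 lower against 87 and 33, and 34 higher and 121 lower against 85 and 79. Energy list members called were 3, 2 and 5 in the same order, with alternatives chosen after seeing the data. For Thy1+ against Thy1- they were 5 of 17 with all names kept, beside 154 of 588 names. DESeq2 called 5 of 13, beside 144 of 425 names, and the block 1 of 13, beside 32 of 425. For culture against Thy1+ they were 1 of 16 under total scaling, beside 173 of 470 names. With all names kept they were 6 of 17, beside 148 of 593, and in limma-voom 1 of 16, beside 92 of 470. Leaving out 1 library gave 0 to 3, 0 to 4 and 2 to 4. With tags of at least 2 counts, the Thy1+ share of shifted starts was 1.52%, mismatched tags held 4.62% in Thy1+ and 6.16% in the culture, and position 16 mismatches 0.266% in Thy1+. With up to 1 mismatch these mismatch shares were 5.10%, 6.20% and 0.315%. Shares below 0.1% rest on fewer than 20 counts in a library.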
